A study of Mus musculus with 6 samples.

Results

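The anaphase-promoting complex, also called the cyclosome, is a large ubiquitin ligase that marks cell cycle proteins for destruction by the proteasome. Its core subunits form a catalytic module, a platform and an arc of tetratricopeptide repeat proteins, and it works with a coactivator, Cdc20 or Fzr1 (Cdh1), that brings in substrates. It is best known for starting anaphase and ending mitosis in dividing cells, and in postmitotic neurons the Fzr1-bound form is known to act on proteins of metabolism, axon growth and synapses. The subunit genes described here are Anapc15, Anapc1, Anapc2, Anapc4, Anapc5, Anapc7, Anapc10, Anapc11, Anapc13 and Anapc16, 10 of the 32285 genes listed in each of 6 matrices. They were picked by symbol after Anapc15 had stood out as higher in Trem2 knockout microglia in these data, so the knockout against wild-type comparison in microglia is given as a description with no test. A list of 28 other genes of the pathway, with the 4 further core subunits Cdc16, Cdc23, Cdc26 and Cdc27, was counted beside them.

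The libraries are single-nucleus 3′ RNA libraries from the frontal lobe of 6 mice, 3 that were Trem2 wild type (SwDI/TWT) and 3 that were Trem2 knockout (SwDI/TKO). All 6 mice carried the Tg-SwDI transgene, human amyloid precursor protein with the Swedish, Dutch and Iowa mutations expressed in neurons, so no library came from mice without the transgene. The design text gives the purpose as finding the transcriptional changes that follow Trem2 loss in this line. The labels used here give no age or sex, do not describe the knockout allele, and give no animal identity beyond 1 tissue sample per library. Replicates are numbered by accession order and pair no animals.

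The matrices held 5220 to 8095 barcodes, where the design text states 5700 to 8100 nuclei per sample, and 4427 to 7460 nuclei per library passed the filters used here, 33008 in all. The matrices held 11493087 to 51317961 UMIs in all, and 200 barcodes occurred in more than 1 library. Knockout replicate 1 stood apart: it was counted with Cell Ranger 7.0.0 and the other 5 with 6.1.2, and its median of 5310 UMIs per nucleus was above the range of 1444 to 2465 in the others. Most of its excitatory neurons, striatal projection neurons and oligodendrocytes fell in clusters made up largely of that library, with 97.2% of its excitatory nuclei in cluster c10, 64.2% of its striatal projection nuclei in cluster c18 and 83.1% of its oligodendrocytes in cluster c9. That library gave 98.3%, 99.7% and 78.3% of the nuclei of these clusters. Its inhibitory neurons lay mostly in clusters shared with other libraries, 49.9% in c11 and 39.0% in c16. Among inhibitory neurons, cluster c4 held 73.2% of wild-type replicate 1 and 61.0% of knockout replicate 2, against 10.1% to 27.1% of the other libraries. All microglia of all 6 libraries fell in 1 cluster. Results are therefore given with and without knockout replicate 1 where it moves them. Nuclei were classed by marker genes with the subunits and the pathway list left out of the clustering, and between 13.6% and 37.1% of the nuclei of a library were left unnamed. Unnamed clusters c5, c6, c13, c15 and c21, of 1963, 1582, 921, 814 and 230 nuclei, matched excitatory neurons best. The named excitatory class held 4756 nuclei, and in the other 5 libraries 98.8% to 99.7% of it was cluster c1. Excitatory neuron results cover this named class alone.

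Levels are given as CPM, the UMIs of a gene per 1000000 UMIs summed over the nuclei of a class in a library. Fewer nuclei that express a gene cannot be told apart from less RNA per nucleus in such sums. Trem2 itself, the microglial lipid receptor that was targeted, was at 1608, 1393 and 816 CPM in microglia of wild-type replicates 1, 2 and 3. It was at 250.3, 668 and 428 CPM in microglia of knockout replicates 1, 2 and 3. The knockout libraries were all below the wild-type libraries, and none was at 0. Since the labels do not say which part of the gene the allele removes, 3′ tags that remain are no measure of functional transcript.

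Anapc15 encodes a small subunit that helps the complex turn over the mitotic checkpoint complex bound to it. In mm10 the gene lies on chromosome 7 from 101863715 to 101901849 on the plus strand, with 16 annotated transcripts. A processed copy, Anapc15-ps, lies on chromosome 10 from 95672991 to 95673451 on the minus strand. Because reads from a near-identical copy could be counted for the gene, a coding stretch of both is shown, from GENCODE M21 transcripts, 5′ to 3′, with the bases that differ in capitals:
Anapc15: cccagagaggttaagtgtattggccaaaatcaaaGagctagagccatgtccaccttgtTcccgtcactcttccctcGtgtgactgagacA
Anapc15-ps: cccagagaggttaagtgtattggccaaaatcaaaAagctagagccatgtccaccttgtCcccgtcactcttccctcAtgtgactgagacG
The stretch is coding bases 16 to 105 of transcript Anapc15-202, and the 4 differences, written as the gene's base, position from the first base shown and the copy's base, are G35A, T59C, G77A and A90G. It was picked as the aligned coding stretch of 90 bases with the most differences. Over the 426 bases that align, the copy was 98.1% identical to that transcript. The alignment ended 299 bases before the 3′ end of Anapc15-202. The copy was listed in the matrices and had 1 UMI in all 6 libraries together.

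In microglia, the resident macrophages of the brain, Anapc15 was at 36.4, 39.0 and 68.9 CPM in wild-type replicates 1, 2 and 3. In knockout replicates 1, 2 and 3 it was at 219, 273 and 143 CPM. The lowest knockout library was 2.08 times the highest wild-type library, and the means were 48.1 ± 18.1 CPM (SD, n = 3) and 212 ± 65.5 CPM (SD, n = 3). These values rest on 5, 4 and 13 UMIs in wild type and 106, 54 and 30 UMIs in knockout. Exact Poisson 95% intervals, which cover counting error only, ran from 1.09 to 22.2 UMIs over the wild-type libraries and from 20.2 to 128 over the knockout libraries. The UMIs of knockout replicate 1 were spread over 70 of 315 nuclei with at most 5 in a nucleus, those of replicate 2 over 47 of 249 nuclei with at most 4, and those of replicate 3 over 29 of 280 nuclei with at most 2. In wild type they came from 5 of 183, 4 of 140 and 11 of 251 nuclei. The median depth of microglial nuclei was 677 to 734 UMIs in 5 libraries, and knockout replicate 1 had 1396. The fitted log2 fold change, knockout minus wild type, was 2.09 with a standard error of 0.43, and it was 1.96 ± 0.40 (SE) without knockout replicate 1. Of 3984 genes tested in microglia, 6.05% were higher in every knockout than in every wild-type library, and Anapc15 was the 19th by fold. Since this comparison chose the gene, nothing is read from that share.

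**Figure D1:**
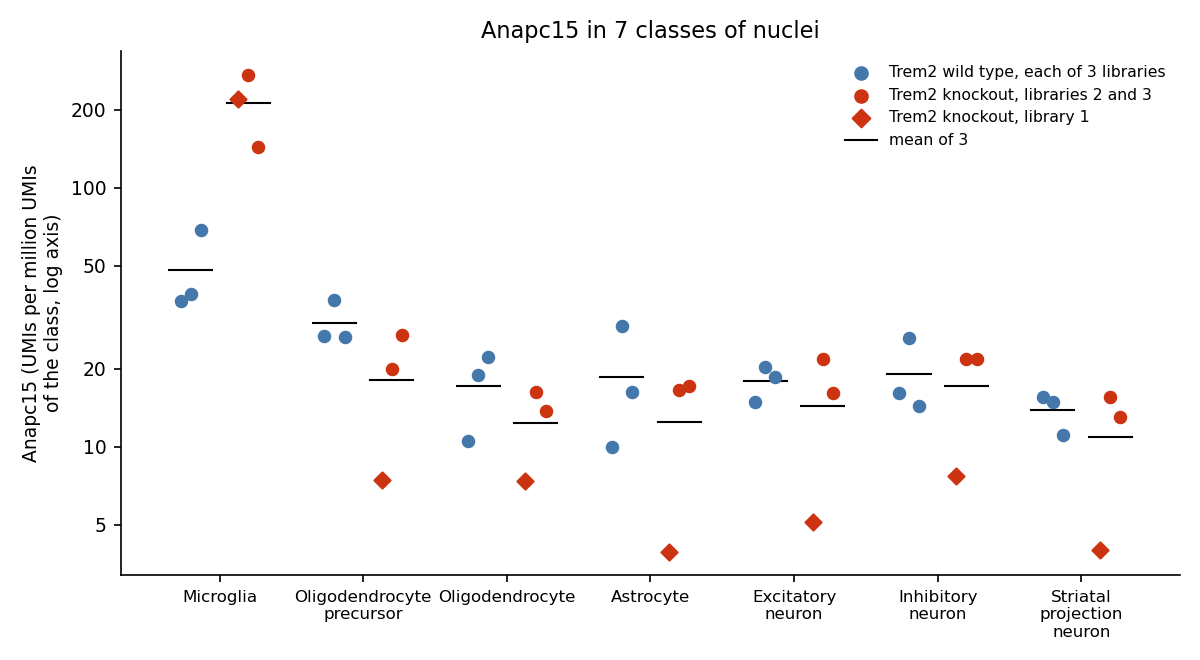
Anapc15 in counts per 1000000 UMIs of the class (CPM, log axis) in 7 classes of nuclei, with a point per library, Trem2 wild type in blue, knockout in red, knockout replicate 1 as a diamond, and lines at the mean of 3 libraries. Knockout microglia sit between 143 and 273 CPM and wild-type microglia between 36.4 and 68.9, while each of the other 6 classes plotted lies at or below 36.7 in all 6 libraries.

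In the other 6 summed classes Anapc15 was at or below 36.7 CPM in all libraries, and none of them had knockout libraries that were all above the wild-type ones. In excitatory neurons it was at 14.9, 20.3 and 18.5 CPM in wild-type libraries and 5.13, 21.8 and 16.1 CPM in knockout, with a log2 fold change of -0.39 ± 0.43 (SE; edgeR adjusted p = 0.807). In inhibitory neurons it was at 16.1, 26.3 and 14.4 CPM in wild-type libraries and 7.73, 21.9 and 21.8 CPM in knockout, with a log2 fold change of -0.19 ± 0.40 (SE; edgeR adjusted p = 0.941). In striatal projection neurons it was at 15.6, 14.9 and 11.1 CPM in wild-type libraries and 3.99, 15.6 and 13 CPM in knockout, with a log2 fold change of -0.42 ± 0.42 (SE; edgeR adjusted p = 0.836). In each of these neuronal classes the genotypes overlapped and knockout replicate 1 was the lowest library. Without it the log2 fold changes were -0.033, 0.10 and -0.11, in that order. The difference in inhibitory neurons thus turned its sign with that library left out.

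Glia other than microglia had too few Anapc15 UMIs for the test over 6 libraries. In oligodendrocytes it was at 10.5, 18.9 and 22.1 CPM in wild-type libraries and 7.37, 16.3 and 13.7 CPM in knockout, from 6 to 16 UMIs a library. In their precursors it was at 26.8, 36.7 and 26.5 CPM in wild-type libraries and 7.44, 19.9 and 27.0 CPM in knockout, from 3 to 6 UMIs a library. In astrocytes it was at 9.95, 29.3 and 16.2 CPM in wild-type libraries and 3.94, 16.5 and 17.2 CPM in knockout, from 2 to 8 UMIs a library. The genotypes overlapped in all 3 of these classes. Border macrophages, the macrophages of vessels and meninges, were too few for sums. Their Anapc15 UMIs were 4 in 22 nuclei, 3 in 21 and 2 in 47 in wild type, and 19 in 53, 3 in 12 and 12 in 61 in knockout replicates 1, 2 and 3. Over all UMIs of these nuclei that was 233, 176 and 59.1 CPM in wild-type mice and 221, 191 and 169 CPM in knockout mice. The genotypes overlapped in these few nuclei, and wild-type replicates 1 and 2 lay within the range of knockout microglia.

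Within a library, microglia of wild-type replicates 1, 2 and 3 had 2.44, 1.92 and 3.73 times the Anapc15 CPM of excitatory neurons. In knockout replicates 1, 2 and 3 the ratio was 42.7, 12.5 and 8.86. Against oligodendrocytes of the same libraries the ratio was 2.06 to 3.48 in wild type and 10.5 to 29.8 in knockout. The highest ratios, 42.7 and 29.8, were those of knockout replicate 1. Its excitatory neurons and oligodendrocytes were at 5.13 and 7.37 CPM, each the lowest of the 6 libraries. Each of the 6 libraries therefore had its highest Anapc15 in microglia when set against either class, and the ratio was higher in all 3 knockout libraries than in all 3 wild-type ones. As the microglial values chose the gene, this too is a description.

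Anapc15 took a larger part of the subunit UMIs in knockout microglia. Of the UMIs of the 10 subunits together, Anapc15 had 6.33%, 6.45% and 9.92% in wild-type microglia and 31.6%, 29.5% and 20.7% in knockout microglia. The exact Clopper-Pearson 95% intervals were 26.7% to 36.9%, 23.0% to 36.7% and 14.4% to 28.2% in knockout replicates 1, 2 and 3. In wild-type replicate 3, the highest of the wild-type libraries, the interval was 5.39% to 16.4%, which overlaps that of knockout replicate 3. The same microglial counts chose the gene, so the microglial shares and their intervals are a description. In the other 6 summed classes the share was between 1.25% and 6.90% in all libraries. In the few border macrophages it was 30.8%, 23.1% and 8.33% in wild-type mice and 30.2%, 20.0% and 28.6% in knockout, of 13 to 63 subunit UMIs a library, so there the genotypes overlapped.

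**Figure D2:**
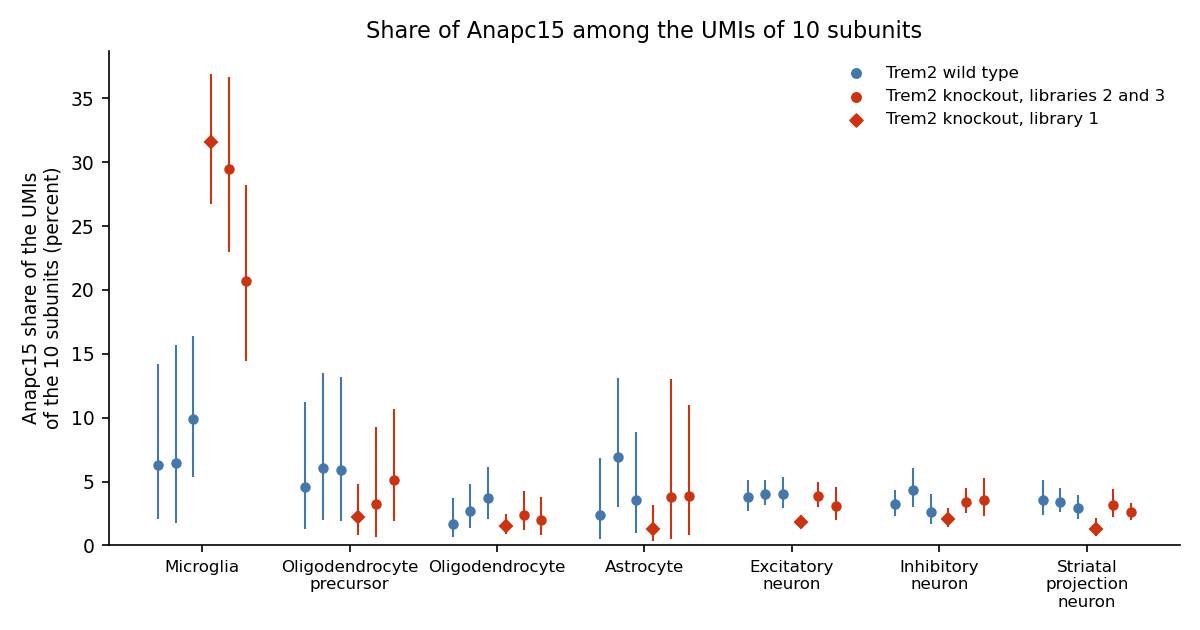
Anapc15 as a percent of the UMIs of the 10 subunits, by class and library, with exact 95% binomial intervals that cover counting error only. Knockout microglia stand above all wild-type microglia, and in the other 6 classes plotted no library passes 6.90%.

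Of the other 9 subunits, 8 had genotypes that overlapped in microglia, and Anapc10 was the exception. Among the genes tested there 6.05% were higher and 4.54% lower in all knockout than in all wild-type libraries. Fits were possible for 6 of them: Anapc1, Anapc4, Anapc5, Anapc11, Anapc13 and Anapc16. Their log2 fold changes, given without a test, lay between -0.41 (Anapc4) and 0.57 (Anapc13). Anapc1, the large scaffold, was at 65.5, 68.2 and 68.9 CPM in microglia of wild-type libraries and at 66.2, 86.0 and 76.1 CPM in those of knockout libraries. Anapc5, a platform subunit, was at 94.6, 127 and 154 CPM in wild-type libraries and 72.4, 147 and 109 CPM in knockout. Anapc16, a small subunit of the arc, was at 124, 97.4 and 122 CPM in wild-type libraries and 114, 70.8 and 85.6 CPM in knockout. For each of these 3 genes the genotypes overlapped. Anapc10, which helps hold the degradation signal of substrates, was too low for the fit and was at 36.4, 39.0 and 42.4 CPM in wild-type libraries and 66.2, 50.6 and 42.8 CPM in knockout. Its knockout values lay above the wild-type ones, with replicate 3 above by the least, on 9 UMIs against 8 in wild-type replicate 3. As Anapc10 did not pass the filter, it is not among the genes of the 6.05% share. Anapc2 and Anapc7 were also too low for the fit, at 2 to 15 and 1 to 9 UMIs a library.

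The microglial class was checked for other cells and for neighbouring genes. Its 11 microglial markers summed to 17535 to 23339 CPM in wild-type libraries and 15031 to 21742 CPM in knockout. The 6 border macrophage markers summed to 0 to 29.2 CPM in wild-type libraries and 0 to 14.3 CPM in knockout, with 2 of the 6 at 0 throughout. Excitatory neuron markers summed to 175 to 247 CPM and 212 to 335 CPM, and markers of cycling cells to 7.28 to 29.2 CPM and 20.7 to 38.1 CPM. Other sets were higher, again with wild type first. Astrocyte markers summed to 641 to 713 and 597 to 641 CPM, and oligodendrocyte markers to 429 to 837 and 426 to 627 CPM. Inhibitory neuron markers summed to 228 to 692 and 192 to 476 CPM, and striatal projection neuron markers to 327 to 721 and 169.6 to 899 CPM. The part of these levels in the Anapc15 values was not tested. Folr1 and Tomt overlap the span of Anapc15 on the opposite strand, Tomt over 1981 exon bases, and Folr2 and Lamtor1 lie 6521 and 4055 bases away. In microglia Folr1 had no UMI, Tomt reached at most 9.51 CPM and Folr2 at most 5.06 CPM in any library. Lamtor1, a lysosomal scaffold protein of nutrient signalling, was at 29.1, 58.5 and 53.0 CPM in wild-type libraries and 49.6, 45.5 and 33.3 CPM in knockout, with overlapping genotypes. Lrrc51 was at 0 to 24.8 CPM in both. The sources used here do not say whether the authors' counting used strand.

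Across classes, the order of Anapc15 over the 5 libraries counted with the same software was microglia at 112 ± 99.8 CPM (SD, n = 5 libraries of both genotypes), oligodendrocyte precursors at 27.4 ± 6.0, inhibitory neurons at 20.1 ± 4.83, excitatory neurons at 18.3 ± 2.86, astrocytes at 17.8 ± 7.04, oligodendrocytes at 16.3 ± 4.50 and striatal projection neurons at 14.0 ± 1.95. Each class overlapped the next in this order. No difference between excitatory neurons and oligodendrocytes was detected for Anapc15, with a log2 fold change of -0.024 ± 0.20 (SE; edgeR adjusted p = 0.925). Against astrocytes it was 0.017 ± 0.32 (SE; edgeR adjusted p = 0.981), and for inhibitory against excitatory neurons 0.036 ± 0.15 (SE; edgeR adjusted p = 0.872).

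Outside microglia no subunit passed the test between genotypes in any class. In excitatory, inhibitory and striatal projection neurons all 10 subunits were tested, in oligodendrocytes 9, and in astrocytes and oligodendrocyte precursors 5 each. None had an edgeR adjusted p under 0.05, and the background was the same: 0% of 12271 genes in excitatory neurons, 0% of 11657 in inhibitory neurons, 0% of 12422 in striatal projection neurons, 0% of 7562 in oligodendrocytes, 0% of 4301 in astrocytes and 0% of 3358 in oligodendrocyte precursors. Unadjusted p-values under 0.05 were found for 647, 492, 495, 470, 349 and 213 genes in the same order, and DESeq2 also called 0 genes in each. Without knockout replicate 1 edgeR called 1 gene in oligodendrocytes and 5 in precursors, none of them a subunit. The median log2 fold change of the subunits tested was -0.011 in excitatory, -0.046 in inhibitory and -0.013 in striatal projection neurons, where the medians of all genes were 0.051, 0.046 and 0.054.

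**Figure D3:**
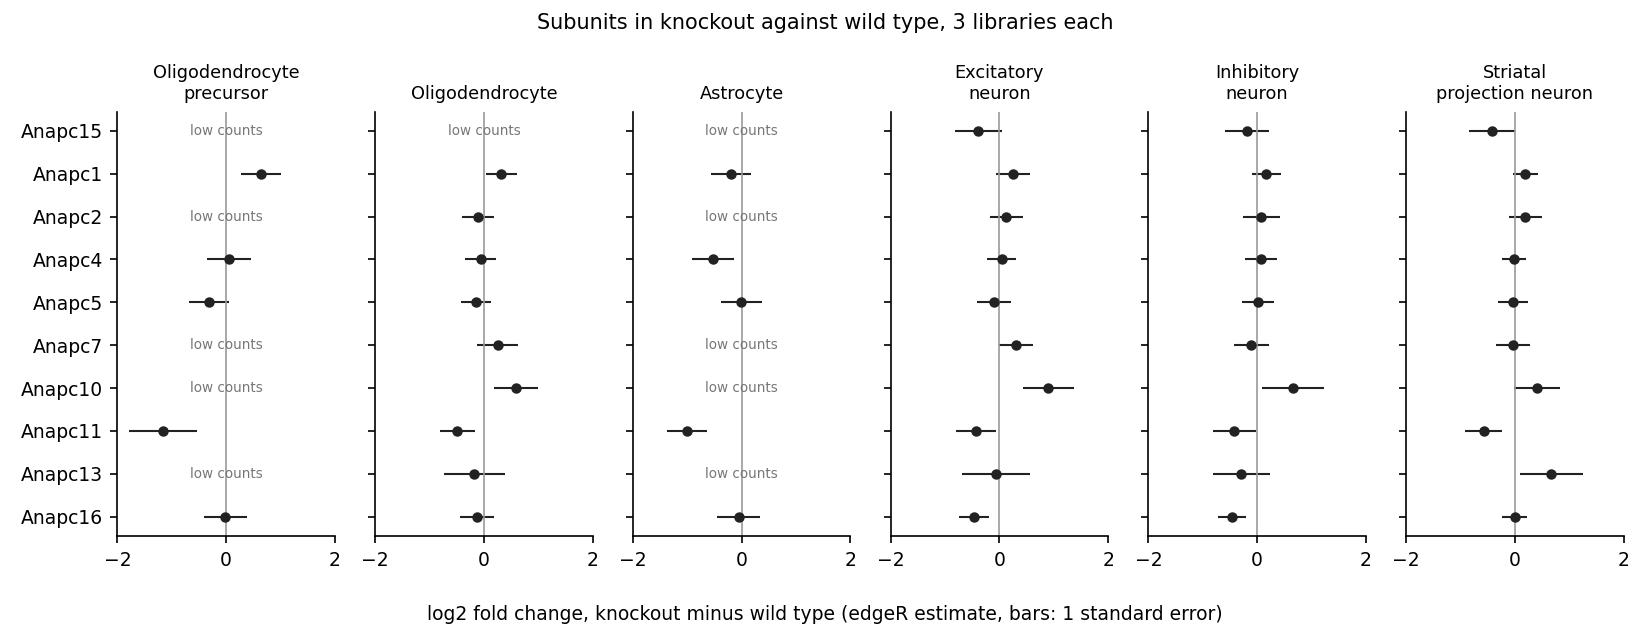
Log2 fold change of each subunit, knockout minus wild type, in 6 classes other than microglia, as points with bars of 1 standard error from edgeR fits over 3 libraries a genotype, and "low counts" where a gene did not pass the filter. Points lie between -1.16 (Anapc11 in oligodendrocyte precursors) and 0.90 (Anapc10 in excitatory neurons), and no adjusted p was under 0.05.

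Among the catalytic subunits, Anapc11, the RING protein that binds the ubiquitin-conjugating enzyme, had the lowest unadjusted p. In astrocytes it was at 73.0, 65.9 and 44.6 CPM in wild-type libraries and 23.6, 41.2 and 34.5 CPM in knockout, so all knockout libraries were below all wild-type ones. The log2 difference was -1.01 ± 0.37 (SE; edgeR unadjusted p = 0.0215, adjusted p = 0.590), and -0.89 without knockout replicate 1. In astrocytes 3.32% of genes tested were lower in all knockout libraries than in all wild-type ones. Its estimate was below 0 in 6 of 6 classes, from -1.16 to -0.42, and from -0.89 to -0.12 without knockout replicate 1. Anapc2, the cullin-like partner of Anapc11, was estimated between -0.11 and 0.19 in the 4 classes with a fit. Its range was -0.0052 to 0.35 without knockout replicate 1. In oligodendrocytes it was at 40.1, 49.9 and 41.0 CPM in wild-type libraries and 30.9, 51.9 and 42.7 CPM in knockout. Anapc10, which completes the substrate-binding site beside the coactivator, had estimates above 0 in 4 of 4 classes with a fit, from 0.41 to 0.90, and of -0.38 to 0.19 without knockout replicate 1. In excitatory neurons it was at 20.8, 21.3 and 18.5 CPM in wild-type libraries and 47.3, 29.9 and 20.0 CPM in knockout, where the third knockout library lay within the wild-type range.

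The platform subunits Anapc1, Anapc4 and Anapc5 were fitted in 6 of 6 classes. Anapc1 had estimates from -0.20 to 0.64, Anapc4 from -0.53 to 0.071 and Anapc5 from -0.32 to 0.015, and the smallest edgeR adjusted p of any was 0.695. With knockout replicate 1 left out the ranges were -0.29 to 0.83, -0.71 to 0.12 and -0.15 to 0.18, in that order. In oligodendrocyte precursors Anapc1 was at 53.6, 88.0 and 47.7 CPM in wild-type libraries and 57.0, 113 and 122 CPM in knockout, with overlapping genotypes. Among the arc subunits, Anapc7 was estimated between -0.11 and 0.31, and Anapc13 between -0.29 and 0.67. Their ranges without knockout replicate 1 were 0.085 to 0.48 and -0.052 to 1.03. Anapc16 had estimates below 0 in 6 of 6 classes, from -0.47 to -0.0022, and from -0.43 to -0.0019 without knockout replicate 1. In inhibitory neurons it was at 76.6, 63.5 and 60.4 CPM in wild-type libraries and 35.1, 59.0 and 51.3 CPM in knockout. All knockout libraries were below all wild-type ones there, as for 2.14% of genes tested in that class. The log2 difference was -0.46 ± 0.26 (SE; edgeR adjusted p = 0.786).

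The genotype effect was also compared between oligodendrocytes and excitatory neurons in 1 model with the library as a block. The difference of the 2 effects on Anapc15 was -0.048 ± 0.44 (SE; edgeR adjusted p = 1.0). For the other subunits it ran from -0.34 for Anapc10 to 0.36 for Anapc16, which were 0.021 and 0.10 without knockout replicate 1, and no subunit passed the test. Over all 12639 genes 0% passed, 656 had an unadjusted p under 0.05, and DESeq2 called 0.

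Knockout replicate 1 carried a pattern of its own across the subunits. Against the mean of the other 2 knockout libraries, Anapc15 in this library was lower in 6 of 7 classes, with a median log2 ratio of -1.54 over the 7 classes, and microglia were the exception at 0.076. Anapc11 and Anapc13, with 4.72 and 5.75 kb of intron in the annotation, had medians of -1.43 and -1.69. Anapc10 and the arc subunit Cdc27, with 62.4 and 41.6 kb of intron, had medians of 0.64 and 1.04. Anapc1, with 60.6 kb, was at -0.67, so intron length did not order all subunits. Knockout replicate 1 was the lowest of the 6 libraries for Anapc5 and Anapc11 in 7 of 7 classes and the highest for Anapc10 in 6 of 7. It was the only library counted with the later software version, so the version and the individual mouse cannot be told apart.

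**Figure D4:**
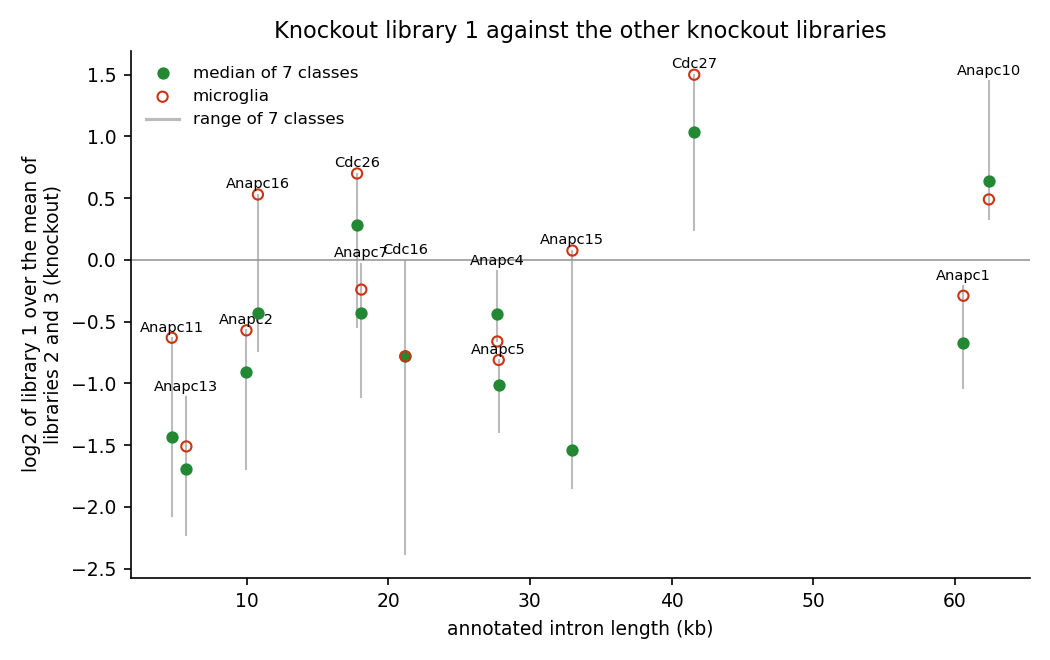
Log2 ratio of knockout replicate 1 to the mean of the other knockout libraries against annotated intron length in kb, for 13 core subunits, with the median of 7 classes in green, microglia as open red circles and the range of classes as grey lines. Anapc15 has a median of -1.54 and a microglial value of 0.076, while Anapc10 and Cdc27 have medians of 0.64 and 1.04.

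The subunits differed between classes, and not all in the same direction. These comparisons were made within libraries over all 6 mice, with TMM scaling and the library as a block. In excitatory neurons against oligodendrocytes, 6 of 10 subunits were lower and 0 higher, where 34.4% of 11357 genes were lower and 33.9% higher. Anapc11 had the largest difference, from 24.5 to 31.4 CPM in excitatory neurons and 81.9 to 117 CPM in oligodendrocytes over 5 libraries, with 8.65 and 41.0 CPM in knockout replicate 1. Its log2 difference was -1.88 ± 0.13 (SE; edgeR adjusted p = 1.24e-09), lower in 6 of 6 libraries. Over the 5 libraries counted with the same software, Anapc11 in oligodendrocytes was the 1 case among all subunits and summed classes where the highest class did not overlap the next, microglia at 65.5 to 79.5 CPM. In knockout replicate 1 Anapc11 was higher in microglia, at 45.5 CPM, than in oligodendrocytes. Anapc16 was lower by a log2 fold change of -1.62 ± 0.14 (SE; edgeR adjusted p = 2.39e-08), Anapc13 by -1.32 ± 0.24 (SE; edgeR adjusted p = 1.10e-04) and Anapc2 by -1.31 ± 0.14 (SE; edgeR adjusted p = 4.41e-07). Anapc10 differed by -0.58 ± 0.16 (edgeR adjusted p = 0.00393) and Anapc1 by -0.35 ± 0.13 (edgeR adjusted p = 0.0205), and Anapc1 was not called with library totals in place of TMM (edgeR adjusted p = 0.0727) or by DESeq2 (adjusted p = 0.116). Anapc4, Anapc5 and Anapc7 had differences of -0.13, 0.0057 and -0.23 and did not pass. Without the library block the calls of Anapc10 and Anapc1 were lost (edgeR adjusted p = 0.217 and 0.181).

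Anapc11, Anapc13 and Anapc16 were also lower in excitatory neurons than in astrocytes, and Anapc5 was higher. Of the 10 subunits 3 were lower and 1 higher, where 26.0% of 10718 genes were lower and 27.9% higher. Anapc16 differed by -1.32 ± 0.19 (SE; edgeR adjusted p = 2.34e-06), Anapc11 by -1.12 ± 0.21 (SE; edgeR adjusted p = 8.15e-05) and Anapc13 by -1.10 ± 0.31 (SE; edgeR adjusted p = 0.00439), each lower in 6 of 6 libraries. Anapc5 was at 152 to 228 CPM in excitatory neurons and 76.3 to 140.0 CPM in astrocytes over 5 libraries, and at 82.1 and 54.1 CPM in knockout replicate 1. Its log2 difference was 0.91 ± 0.15 (SE; edgeR adjusted p = 1.27e-05), higher in 6 of 6 libraries. The call of Anapc13 was lost without the library block (edgeR adjusted p = 0.0953) and in wild-type libraries alone (edgeR adjusted p = 0.182).

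Against microglia, excitatory neurons had lower Anapc13, Anapc11, Anapc16 and Anapc2 and higher Anapc5. Anapc13 differed by -1.92 ± 0.31 (SE; edgeR adjusted p = 3.81e-06), Anapc11 by -1.31 ± 0.22 (SE; edgeR adjusted p = 6.45e-06) and Anapc16 by -1.31 ± 0.19 (SE; edgeR adjusted p = 8.23e-07). Anapc2 differed by -0.73 ± 0.26 (SE; edgeR adjusted p = 0.0171) and was not called without knockout replicate 1 (edgeR adjusted p = 0.0827), in wild-type libraries alone (edgeR adjusted p = 0.465) or by DESeq2 (adjusted p = 0.140). Anapc5 differed by 0.83 ± 0.16 (SE; edgeR adjusted p = 3.92e-05), and by 0.53 with library totals in place of TMM. Of 10283 genes 30.1% were lower and 33.6% higher. The balance of this comparison depended on the scaling. Library totals gave 3919 genes lower and 2636 higher, where TMM gave 3091 and 3454, and moved the median of all genes from 0.07 to -0.26. The 5 subunits named kept their direction under both. Anapc10, at -0.42 and not called with TMM (edgeR adjusted p = 0.146), was called lower with library totals, at -0.81 (edgeR adjusted p = 0.00630), and without knockout replicate 1, at -0.71 (edgeR adjusted p = 0.0390).

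Between inhibitory and excitatory neurons, with TMM scaling, 4 of 10 subunits were higher in inhibitory neurons and 1 lower, where 19.7% of 12029 genes were higher and 21.2% lower. Anapc16 was at 51.3 to 76.6 CPM in inhibitory neurons and 31.7 to 46.7 CPM in excitatory neurons over 5 libraries, a log2 fold change of 0.55 ± 0.10 (SE; edgeR adjusted p = 9.62e-04). Anapc11 differed by 0.52 ± 0.12 (SE; edgeR adjusted p = 0.00619) and Anapc4 by 0.43 ± 0.089 (SE; edgeR adjusted p = 0.00275). Anapc2 differed by 0.33 ± 0.11 (SE; edgeR adjusted p = 0.0383) and Anapc5 by -0.21 ± 0.077 (SE; edgeR adjusted p = 0.0458). The calls of Anapc2 and Anapc5 were lost under DESeq2, at adjusted p = 0.216 and 0.0833, and Anapc5 was at -0.052 with library totals. Library totals gave 3811 genes higher and 1778 lower, where TMM gave 2364 and 2553, and called Anapc7 and Anapc13 as higher in inhibitory neurons too. Without the library block none of the 5 subunits was called, and in wild-type libraries alone Anapc16 was (edgeR adjusted p = 0.0429).

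**Figure D5:**
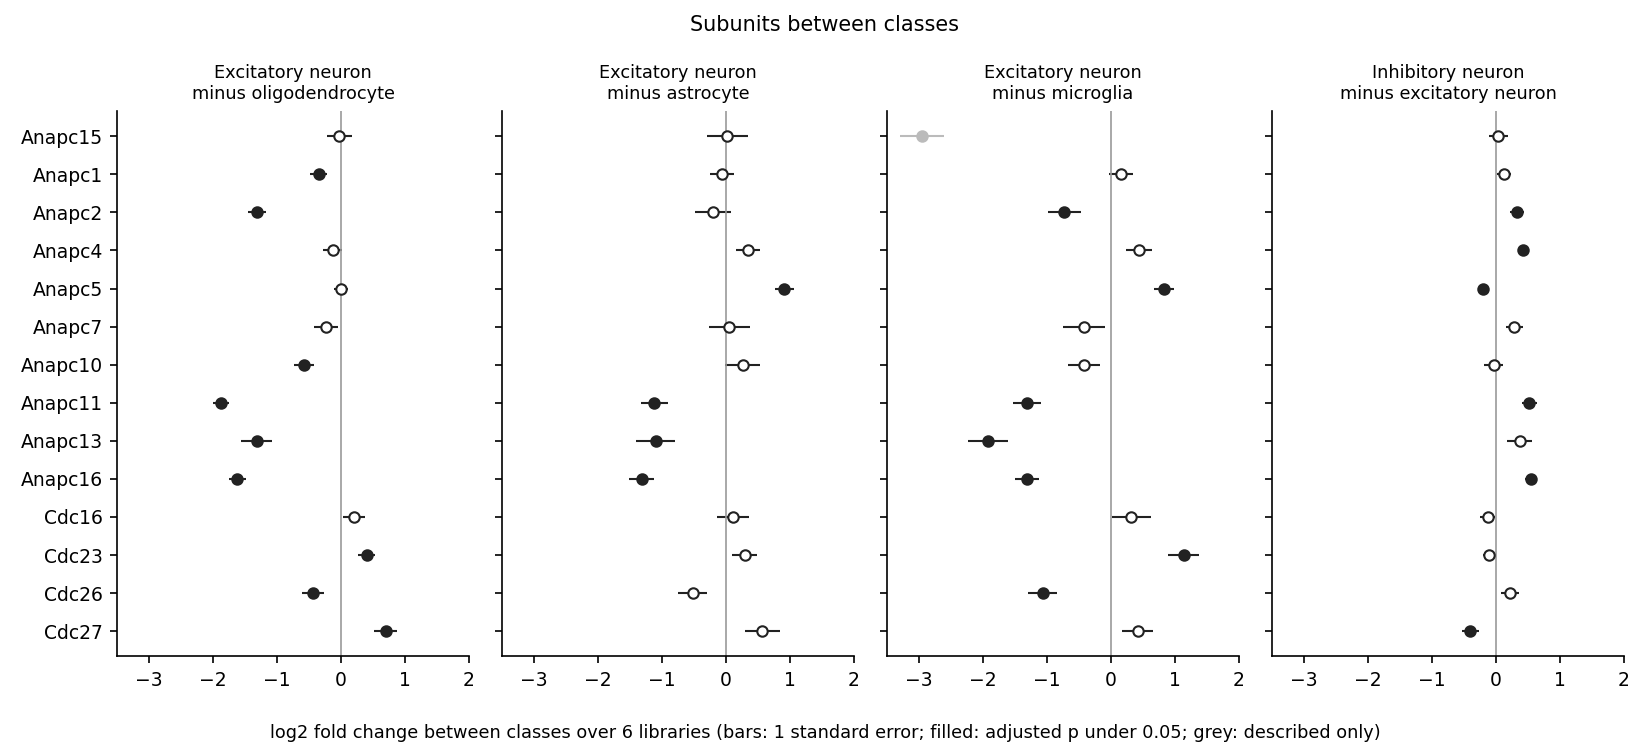
Log2 fold change between classes for 14 core subunits over 6 libraries, with bars of 1 standard error, filled points where the edgeR adjusted p was under 0.05, and Anapc15 against microglia in grey as a value with no test. Anapc11, Anapc13 and Anapc16 lie left of 0 in all 3 panels that set excitatory neurons against glia, down to -1.92, while Anapc5 reaches 0.91.

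The length of a gene moved with these class differences over all genes. For excitatory neurons against oligodendrocytes the median log2 fold change was -0.26 over 2561 genes spanning under 10 kb, -0.16 over 2013 genes of 10 to 20 kb, -0.036 over 2382 genes of 20 to 40 kb, 0.046 over 1964 genes of 40 to 80 kb and 0.47 over 2433 longer genes. Anapc11 and Anapc13 are in the first of these groups and Anapc2 and Anapc16 in the next. Their differences of -1.88, -1.32, -1.31 and -1.62 were each farther from 0 than the median of their group. The part of gene length in them was not tested further.

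Of the remaining core subunits, all 4 were tested in the class comparisons. Cdc27, the arc protein that binds the tail of the coactivator, was higher in excitatory neurons than in oligodendrocytes by 0.70 ± 0.18 (SE; edgeR adjusted p = 0.00226), a call lost in wild-type libraries alone (edgeR adjusted p = 0.108) and without the library block (edgeR adjusted p = 0.246). Cdc23, another arc protein, was higher by 0.40 ± 0.13 (SE; edgeR adjusted p = 0.0114) there and by 1.14 ± 0.24 (SE; edgeR adjusted p = 1.52e-04) against microglia. Cdc26, a small protein that stabilizes Cdc16, was lower in excitatory neurons, by -0.44 ± 0.17 (SE; edgeR adjusted p = 0.0285) against oligodendrocytes and by -1.07 ± 0.23 (SE; edgeR adjusted p = 1.70e-04) against microglia. Against oligodendrocytes the call of Cdc26 was lost without knockout replicate 1 (edgeR adjusted p = 0.0566) and by DESeq2 (adjusted p = 0.181), and that of Cdc23 without the library block (edgeR adjusted p = 0.131). Cdc16 did not pass in any of the 4 comparisons, with differences from -0.13 to 0.32. Cdc27 was the lower gene in inhibitory against excitatory neurons, by -0.40 ± 0.13 (SE; edgeR adjusted p = 0.0294), and this was lost without knockout replicate 1 (edgeR adjusted p = 0.122). Between genotypes Cdc27 had estimates of 0.80 to 1.12 in the 4 classes with a fit outside microglia, and of -0.012 to 0.31 without knockout replicate 1. In striatal projection neurons it was at 22.5, 19.1 and 23.6 CPM in wild-type libraries and 62.7, 29.0 and 31.0 CPM in knockout, higher in all knockout libraries as were 8.76% of genes tested there. None of the 4 passed the test between genotypes in any class.

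The coactivator Fzr1 was higher in excitatory neurons than in oligodendrocytes, by 0.46 ± 0.18 (SE; edgeR adjusted p = 0.0355), but not without knockout replicate 1 (edgeR adjusted p = 0.0553). The call of Fzr1 was also lost in wild-type libraries alone (edgeR adjusted p = 0.0839), without the library block (edgeR adjusted p = 0.0846) and by DESeq2 (adjusted p = 0.0897). In excitatory neurons it was at 23.2, 22.2 and 21.1 CPM in wild-type libraries and 9.31, 25.3 and 26.4 CPM in knockout (edgeR adjusted p = 0.894). The other coactivator, Cdc20, did not pass the low-count filter in excitatory neurons or astrocytes between genotypes. Of the 28 pathway genes, the 4 core subunits included, 16 were tested in excitatory neurons against oligodendrocytes, with 9 higher and 3 lower, where 33.9% of all genes were higher and 34.4% lower. Among those with the smallest p besides the core were Ube2d1, a ubiquitin-conjugating enzyme, lower by -2.79 ± 0.11 (SE; edgeR adjusted p = 1.05e-12), and the substrate Neurod2, a neuronal transcription factor, higher by 2.48 (edgeR adjusted p = 1.58e-08). Against astrocytes 5 of 16 were higher and 3 lower, where 27.9% and 26.0% of all genes were, led by the substrate Id2, an inhibitor of helix-loop-helix factors, at -3.41 ± 0.16 (SE; edgeR adjusted p = 1.65e-14). Against microglia 4 of 16 were higher and 4 lower, where 33.6% and 30.1% of all genes were. The smallest p-values were those of Skil, a repressor of TGF-beta signalling, at -2.63 ± 0.17 (SE; edgeR adjusted p = 1.44e-13), Neurod2 at 3.24 ± 0.35 (SE; edgeR adjusted p = 3.51e-09) and Pfkfb3, a glycolytic enzyme, at -2.30 ± 0.31 (SE; edgeR adjusted p = 2.08e-07). For inhibitory against excitatory neurons 2 of 17 were higher and 7 lower, where 19.7% and 21.2% of all genes were, led by Neurod2 at -3.81 ± 0.17 (SE; edgeR adjusted p = 1.07e-07).

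Between genotypes no pathway gene passed in any class outside microglia, out of 18 tested in excitatory, 17 in inhibitory and 19 in striatal projection neurons, 11 in oligodendrocytes, 6 in astrocytes and 4 in precursors. Their median log2 fold changes were -0.10, -0.022, -0.14, -0.15, -0.27 and 0.13 in that order. Bub3, a spindle checkpoint protein that holds the complex back, was among the 3 genes with the smallest p in 5 of these 6 classes. In excitatory neurons it was at 83.3, 85.9 and 74.0 CPM in wild-type libraries and 21.8, 70.4 and 61.2 CPM in knockout, with a log2 fold change of -0.70 ± 0.33 (SE; edgeR adjusted p = 0.678) and of -0.44 without knockout replicate 1. In inhibitory neurons it was at 55.2, 68.9 and 52.2 CPM in wild-type libraries and 20.4, 37.6 and 50.3 CPM in knockout (edgeR adjusted p = 0.786). Mad2l1, another checkpoint protein, was at 6.28, 5.63 and 3.87 CPM in excitatory neurons of wild-type libraries and 1.83, 2.82 and 2.58 CPM in those of knockout libraries, with a log2 fold change of -1.06 ± 0.39 (SE; edgeR adjusted p = 0.678). Mad2l1 was named by its small p, and its levels are low. The excitatory sum of knockout replicate 3 held 1552251 UMIs, so its 2.58 CPM rests on few UMIs. In microglia, given without a test, Pfkfb3 was at 29.1, 58.5 and 31.8 CPM in wild-type libraries and 86.9, 126 and 85.6 CPM in knockout, and Bub3 at 87.3, 77.9 and 68.9 CPM in wild-type libraries and 37.2, 65.7 and 42.8 CPM in knockout. Neither gene's genotypes overlapped, with Pfkfb3 higher in knockout, as were 6.05% of genes tested in microglia, and Bub3 lower, as were 4.54%. Pathway genes were named in each class by the smallest p from the same counts, so nothing is read from this separation.

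The genes whose levels followed Anapc15 most closely were not subunits. Over the 42 sums of class and library, which share library depth and the microglial class, the 5 genes with the highest correlation of log2(CPM + 10) among 8278 genes were Ntpcr (r = 0.88), Dhx9 (0.86), AU020206 (0.85), Hif1a (0.85) and Tubgcp5 (0.85). In microglia Ntpcr had a mean of 66.0 CPM in wild-type libraries and 145 CPM in knockout, AU020206 of 176 and 305 CPM, and Hif1a of 125 and 199 CPM. Dhx9 had means of 266 and 400.0 CPM and Tubgcp5 of 258 and 338 CPM. The picking used the knockout microglia in which Anapc15 is high, so nothing is read from these means. Among the other subunits the correlation ran from 0.015 for Anapc4 to 0.59 for Anapc13. AU020206 alone remained among the 5 closest without knockout replicate 1, with r = 0.86 over 35 sums.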

How the data were processed

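The authors deposited raw UMI counts for each library, limited to barcodes called as nuclei. Per the file headers Cell Ranger 7.0.0 counted knockout replicate 1 and Cell Ranger 6.1.2 the other 5 libraries. The submitters' processing notes also name mm10 and Seurat. The sources used here do not say whether intronic reads were counted.

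The filter asked for 200 genes and no more than 5% mitochondrial UMIs and kept 34281 of 39752 barcodes, and Scrublet in scanpy 1.11.5 removed 1273 doublets. Leiden clustering (leidenalg 0.10.2, resolution 1, 30 components, 2000 variable genes) gave 28 clusters, of which 19 were named from marker genes. Names stand for marker-like classes, and other annotations may differ. The members, gene lists and markers were chosen with earlier results of these data known. Named are all members, the 4 other core subunits, Fzr1, up to 3 pathway genes with the smallest p, the 5 genes most like Anapc15, its neighbours and Trem2. A gene of the pathway list that this rule names is not reported here.

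UMIs were summed per class and library for the 7 classes that had 20 or more nuclei in each library. The replicate was the mouse. For knockout against wild type, p-values measure the spread between these libraries within a genotype. In fits with the library as a block, they measure how far the class difference varied from library to library. edgeR 4.0.16 (quasi-likelihood test, TMM, filterByExpr, Benjamini-Hochberg, two-sided) in R 4.3.3 was the main test, with DESeq2 1.42.0 as an alternative. The edgeR test was tried on simulated data, and DESeq2 was not. TMM factors ran from 0.752 to 1.17 within classes. CPM values printed are scaled to UMI totals only. Class sums held 102639 to 13643480 UMIs. Positions are from GENCODE M21 (mm10), which held 99.85% of the listed gene IDs.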

Additional observations from a re-analysis of the deposited data

How the results depend on the processing

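Of 401 alternative values for 36 results, 344 were scored the same, 42 weaker, 13 moved and 2 reversed. The same score allowed changes of size. The log2 fold change of Anapc15 in excitatory neurons, -0.39, ran from -0.82 to -0.033 with a library left out. In excitatory neurons against oligodendrocytes 6 subunits were called, and 4 without the library block. Counts of 0 subunits called between genotypes are among the results scored. The main fits behind these counts called 0% of all genes, so a score of the same says little there. In inhibitory against excitatory neurons 5 subunits were called. The count was 3 with DESeq2, without the low-count filter and with nuclei chosen by a marker gate, 0 without the replicate block on library, and 1 with wild-type libraries alone. Leaving out a library gave 3 to 4. The number of all genes called there fell from 4917 to 1485 without the block and to 2245 in wild-type libraries alone. Alternatives with library totals and with wild-type libraries alone were chosen after seeing the data. The log2 fold change of Anapc15 in inhibitory neurons, -0.19, was 0.047 without wild-type replicate 2 and 0.10 without knockout replicate 1, and ran from -0.41 to 0.10 with any library left out. Of the 5 genes most like Anapc15, 2 remained with a pseudocount of 1 or 50 and 1 without knockout replicate 1. The log2 fold change of Anapc15 in microglia ran from 1.91 to 2.48 with a library left out. Of 240 alternatives to the 20 class differences called, 42 lost the call and none turned. Without knockout replicate 1, edgeR called 2 genes for the difference of genotype effects. No paired analysis was possible between genotypes because replicates are numbered by accession order. With 4 to 13 Anapc15 UMIs in wild-type microglia and 2 to 16 in other glia, depth limits every ratio.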
